A study of Mus musculus with 10 samples.

Results

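The genes described here are 40 genes of the DNA replication machinery and of deoxynucleotide (dNTP) supply, taken by gene symbol from the 25078 genes of the deposited mouse count table. All 40 symbols were found, and all 40 had a mean of at least 1 RPKM (reads normalised to exon length and library size), so no member was lost to a filter on low values. They comprise 8 genes of the MCM family, 5 of origin licensing, 5 of CDC45 and GINS, 6 of the sliding clamp and its loader, 8 of the polymerases and primase, 4 of Okazaki fragment maturation and single-strand binding, and 4 of dNTP synthesis.

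RNA-seq was performed on LSK cells (Lin-, Sca-1+, c-Kit+), the bone marrow population that holds hematopoietic stem cells and early progenitors, with 5 CM mice, 5 CM/miR-126Δ/Δ mice and 1 library per mouse. CM mice carried the Cbfb-MYH11 fusion, the product of the inv(16) rearrangement of acute myeloid leukemia, as a conditional knock-in at Cbfb with Mx1-Cre, and in CM/miR-126Δ/Δ mice a floxed miR-126 was deleted in addition. Both genotypes received poly(I:C), which induces Cre from the interferon-responsive Mx1 promoter and so acts in more than blood cells, and LSK cells were sorted at the preleukemic stage, 6 weeks later. Mice of both sexes were 6 to 8 weeks old at induction, and neither wild-type LSK cells nor LSK cells lacking miR-126 without the fusion were among the libraries analysed.

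Libraries held 23649233 to 33202086 counts. Mir126a, the precursor of the deleted microRNA, was read 4, 5, 0, 2 and 3 times in the CM libraries and 0 times in each of the 5 CM/miR-126Δ/Δ libraries, although a precursor is read poorly by such a library. All 10 LSK markers examined were detected, and their summed level ran from 3184 to 3790 CPM (counts scaled to library size with TMM factors) in CM and from 3110 to 3815 CPM in CM/miR-126Δ/Δ mice (two-sided exact permutation p = 0.341). Summed markers of granulocytes and monocytes ran from 2083 to 3957 CPM and from 1769 to 4673 CPM, those of erythroid cells from 126 to 282 CPM and from 139 to 261 CPM, those of megakaryocytes from 147 to 223 CPM and from 113 to 197 CPM, and those of mast cells and basophils from 105 to 252.3 CPM and from 112 to 227 CPM. B cell markers lay between 24.5 and 39.8 CPM and T and NK cell markers between 37.5 and 68.5 CPM over all 10 mice. Most of these sums came from Cd79b (mean 23.6 CPM) and Nkg7 (mean 48.2 CPM). Mpo (mean 2172 CPM) made up most of the granulocyte and monocyte sum, which hides genes that were uneven between mice. S100a8 ran from 0.479 to 72.2 CPM, S100a9 from 0.566 to 109 CPM, Ltf from 0.0871 to 65.2 CPM and Ngp from 0.303 to 78.6 CPM. The summed levels of the genotypes overlapped for every list, no marker gene was at 0 in all libraries, and none passed an adjusted p of 0.05 (edgeR). Of the LSK markers 7 were higher and 3 lower in CM/miR-126Δ/Δ mice, and Hlf, Meis1 and Mecom, transcription factor genes of stem cells, were higher at an unadjusted p under 0.05, with log2 fold changes of 0.31, 0.19 and 0.24 (edgeR adjusted p of 0.661, 0.746 and 0.748). All 6 B cell and all 6 T and NK cell markers were lower, with 0 at an unadjusted p under 0.05. Apart from Cd79b and Nkg7 these lymphoid genes averaged at most 2.44 CPM. The part of these differences in the results on replication genes was not tested.

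A dividing cell first loads the MCM helicase onto origins with the help of the origin recognition complex, CDC6 and CDT1. CDC45 and GINS then join it to form the active helicase, primase and polymerase alpha start each strand, and polymerases epsilon and delta extend the strands on the PCNA clamp, which the RFC complex loads. RPA covers the single strands, FEN1 and LIG1 finish the lagging strand, and ribonucleotide reductase, thymidylate synthase and thymidine kinase provide the deoxynucleotides. Many of these genes are known targets of E2F factors, transcribed as cells enter S phase, which is why their promoter sequence is shown first.

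RefSeq promoter windows (GRCm38.p6, 250 bases before to 50 bases after the annotated start) were found for 33 of the 40 genes, and those of Gins4, Mcm4, Pole, Rfc2, Prim2, Gins1 and Gins2 were not used here. The letters TTNGCGC, an E2F-type motif searched on both strands with overlapping matches merged into 1 site, were present in 12 of the 33 windows (36.4%) and in 1066 of 9094 windows of genes with at least 1 RPKM (11.7%). Of the 5 MCM2 to MCM7 genes with a window, Mcm3, Mcm5, Mcm6 and Mcm7 held the motif and Mcm2 did not. The 4 are shown with up to 10 bases on either side of the site nearest to the start, followed by Cdt1, which like Orc1 held 1 site and had the higher RPKM of these 2 licensing genes, and by Pola1, the polymerase gene with most sites. The letters of the motif or of its reverse complement are in capitals, and each sequence is read 5′ to 3′ along the strand of its gene.
Mcm3, chr1:20820263-20820283, minus strand: ttgggaagttTTGGCGCCAAg
Mcm5, chr8:75109347-75109376, plus strand: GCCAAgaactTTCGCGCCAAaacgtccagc
Mcm6, chr1:128359665-128359691, minus strand: ccggaggcgcGCGCGAAgtggcagcgc
Mcm7, chr5:138171847-138171876, minus strand: gtgacgacgtTTCGCGCCAAtttcggttgg
Cdt1, chr8:122568038-122568064, plus strand: aactacctttTTGGCGCcatggcgcaa
Pola1, chrX:93632124-93632150, minus strand: ttcaggctggTTGGCGCggaatagaga
In Mcm3, Mcm5 and Mcm7 matches on both strands overlapped in a run of 10 bases, Mcm6 held 3 separate sites, and the capitals at the start of the Mcm5 run are the end of its second site. Orc1, Mcm8, Rfc3, Rfc5 and Pole2 were among the other genes with a site.

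Other motifs of cell cycle promoters were searched in the same windows. The CCAAT box was present in 22 of 33 windows (66.7%, against 39.4% of all windows), and 9 members held both a CCAAT box and the E2F-type motif, as did 5.15% of all genes. The GC box GGCGGG was present in 25 windows (75.8% against 64.0%), the E-box CACGTG, the letters MYC binds, in 6 (18.2% against 10.6%), and TTTGAA, the core of the CHR element of mitotic promoters, in 4 (12.1% against 12.1%). No E2F-type site overlapped a GC box match. A match describes the letters of a window and is not evidence of binding. The median genotype difference was -0.07 on the log2 scale in the 12 genes with the E2F-type motif and -0.06 in the 21 without it.

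LSK cells of both genotypes expressed the whole machinery. The median RPKM of the 40 genes was at or above that of 80.7% of the genes with at least 1 RPKM. Levels were compared between genes in RPKM, over all 10 mice. Mcm6 (119 RPKM) and Mcm3 (106 RPKM) led the 40 genes, in the same order in all 10 mice. Mcm2 (77.1 RPKM) and Mcm5 (76.5 RPKM) did not differ beyond their spread, since Mcm2 was higher in 6 of 10 mice, and the same was true of Mcm7 (66.6 RPKM) and Mcm4 (64.2 RPKM). The 6 subunits of the replicative MCM helicase therefore lay between 64.2 and 119 RPKM, above Mcm10 (14.8 RPKM), which helps to activate it, and Mcm8 (5.52 RPKM), which acts in repair.

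Rrm1 (92.0 RPKM), Rfc2 (83.3 RPKM) and Pcna (78.6 RPKM) were the next highest outside the MCM family. Among the licensing genes Cdt1 (38.8 RPKM) was higher than Orc6 (19.8 RPKM) and Orc2 (19.0 RPKM), which exchanged places in 3 of 10 mice, and Cdc6 (10.0 RPKM) and Orc1 (5.07 RPKM) followed in every mouse. The 4 GINS genes, whose products form 1 complex, ran from Gins4 (26.6 RPKM) through Gins2 (21.5 RPKM) and Gins1 (17.8 RPKM) to Gins3 (7.20 RPKM). The polymerase and primase genes were closer together, between 14.2 RPKM for Pole2 and 38.4 RPKM for Pola1. In dNTP synthesis Rrm1, the large subunit of ribonucleotide reductase, was followed in all 10 mice by Rrm2 (32.9 RPKM), the small subunit, then by Tk1 (20.7 RPKM) and Tyms (12.3 RPKM).

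**Figure D1:**
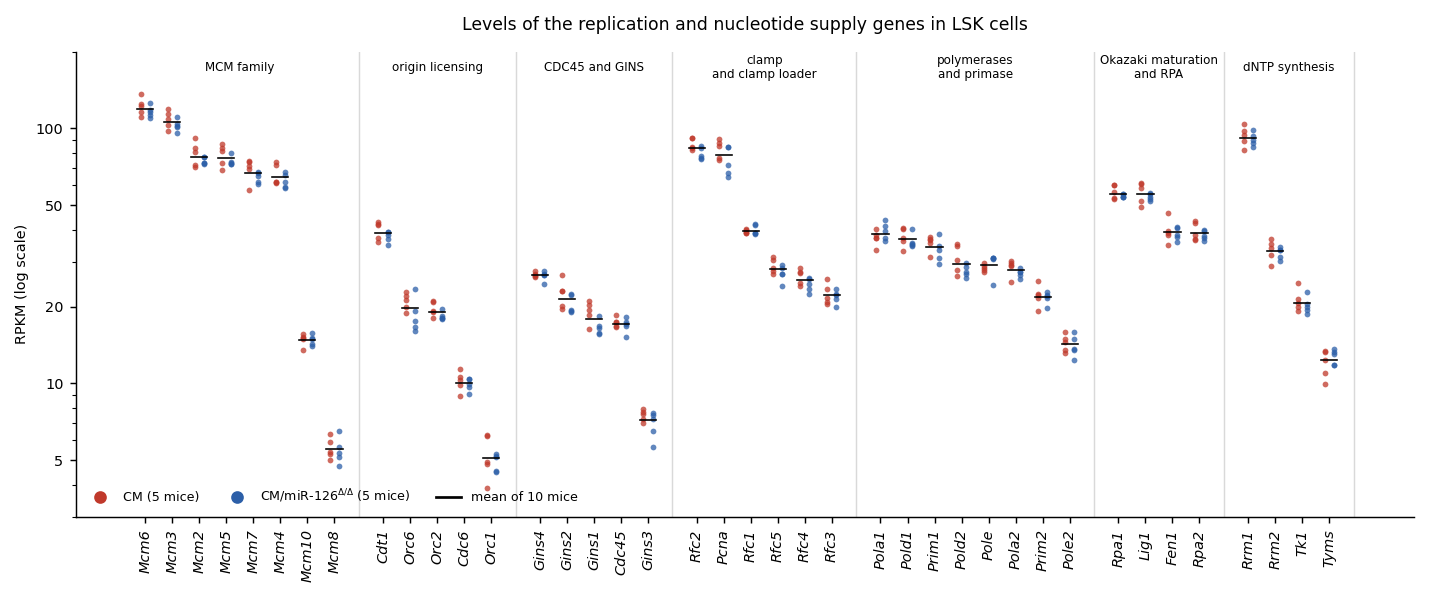
Level of each gene in RPKM on a log scale, grouped by role, with 1 point per mouse (5 CM in red, 5 CM/miR-126Δ/Δ in blue) and a line at the mean of 10 mice. Levels span 5.07 RPKM (Orc1) to 119 RPKM (Mcm6), and the points of the genotypes overlap for all 40 genes.

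The comparison of genotypes asked whether loss of miR-126 changed these genes in preleukemic LSK cells. Of the 40 genes, 36 were lower in the CM/miR-126Δ/Δ mice and 4 were higher (Rfc1, Pola1, Pole and Tyms), whereas 57.5% of all genes with at least 1 RPKM were lower. The differences were small. Their median was -0.07 on the log2 scale (quartiles -0.10 to -0.04), against -0.02 for all genes with at least 1 RPKM. No member passed an adjusted p of 0.05 (edgeR quasi-likelihood F-test with Benjamini-Hochberg adjustment over 18747 genes, of which 2, or 0.0107%, passed), and the smallest adjusted p among the members was 0.748. At an unadjusted p under 0.05, 1 member of 40 (Gins1) was lower and 0 were higher, while 4.46% of genes with at least 1 RPKM were lower and 3.46% were higher. DESeq2 also called 0 members at an adjusted p of 0.05. No member met the cutoffs of the study (p of at most 0.01 and a change of at least 1.5-fold), which 0.462% of genes met, and no member separated the genotypes without overlap, as 1.38% of genes did.

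The data were precise enough to bound these differences. The median SE of the log2 fold change was 0.0720 for the members and 0.0901 for all genes with at least 1 RPKM. The 95% confidence interval of every member lay within a 1.5-fold change in either direction. So did that of 10134 of the 11682 genes with at least 1 RPKM. The intervals are for single genes, and among the members the bound farthest from 0 was -0.40, for Orc6. The median coefficient of variation between mice was 8.28% in CM and 5.71% in CM/miR-126Δ/Δ. The lowest count of any member in any library was 311.

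**Figure D2:**
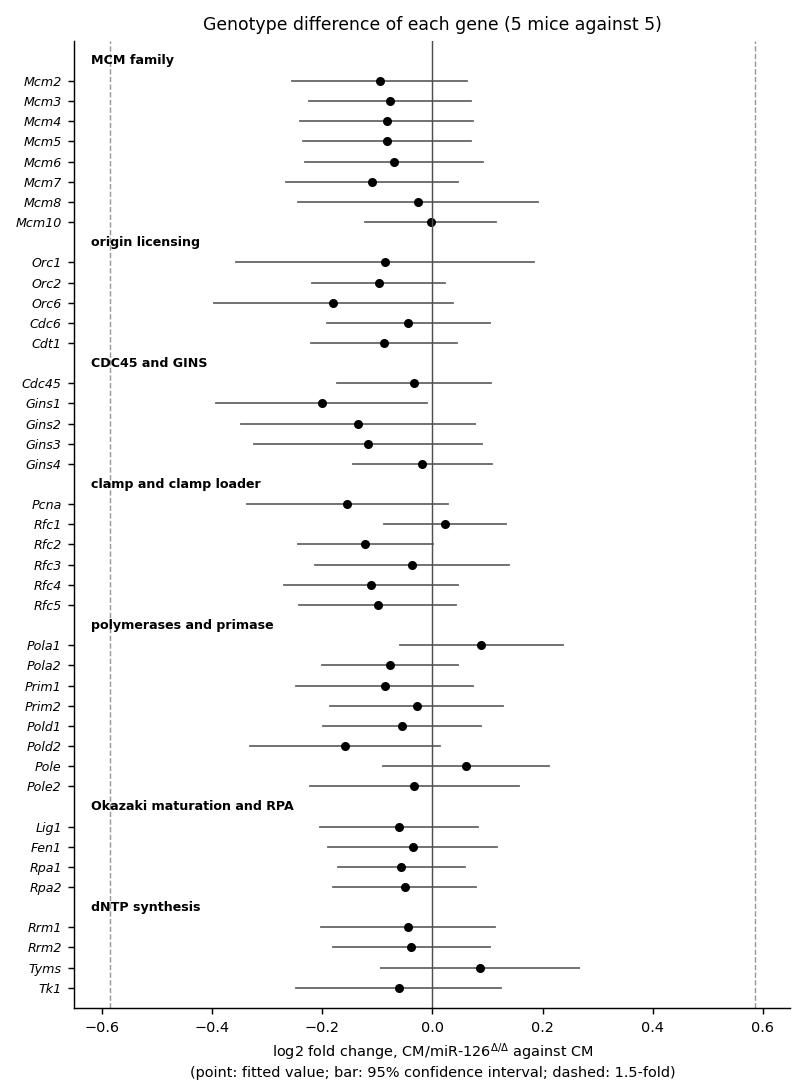
Fitted log2 fold change (CM/miR-126Δ/Δ against CM, 5 mice each) of the 40 genes by role, with 95% confidence intervals as bars and a 1.5-fold change as dashed lines. Of the 40 points, 36 lie below 0, and no interval reaches 1.5-fold.

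The direction shared by most genes varied from mouse to mouse within each genotype. The mean level of the 40 genes, as a percentage of the CM mean, was 107%, 102%, 97.3%, 103% and 91.4% in CM mice 1 to 5 and 100.2%, 94.9%, 93.2%, 97.5% and 92.9% in CM/miR-126Δ/Δ mice 1 to 5. CM mouse 1 was thus the highest and CM mouse 5 the lowest of all 10 mice, and the range of the CM mice enclosed all 5 CM/miR-126Δ/Δ mice. CM mice 1 to 5 held the highest value for 17, 5, 2, 7 and 0 of the 40 genes. CM/miR-126Δ/Δ mice 1 to 5 held it for 5, 2, 0, 2 and 0. The lowest value was in CM mice 1 to 5 for 0, 0, 4, 0 and 12 genes. It was in CM/miR-126Δ/Δ mice 1 to 5 for 1, 6, 7, 5 and 5. Without CM mouse 1 the median log2 fold change was -0.02, against -0.002 for all genes, and 27 of 40 genes were lower. The share of all counts that fell on the members was 0.473% ± 0.0261 (SD) in the 5 CM mice, against 0.450% ± 0.0216 (SD) in the 5 mice with miR-126 deleted. In RNA from bulk cells, fewer cells in S phase and less RNA per cell cannot be told apart.

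**Figure D3:**
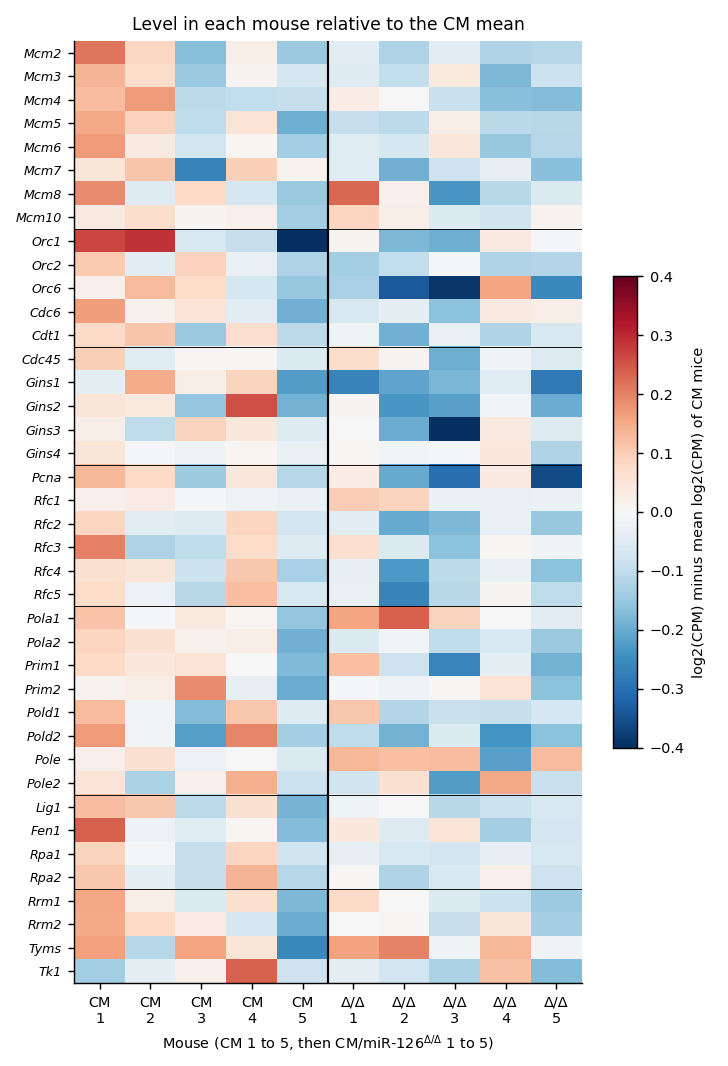
Level of each gene in each mouse as log2(CPM) minus the mean of the 5 CM mice, with genes in rows by role and mice in columns (red above and blue below the CM mean). CM mouse 1 is red for most genes and CM mouse 5 blue for most. Averaged over the genes shown, each CM/miR-126Δ/Δ mouse lies between CM mice 1 and 5, but many single genes do not.

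RNA concentrations given for the samples were 20.6 to 40.9 ng/ul in CM and 16.1 to 29.5 ng/ul in CM/miR-126Δ/Δ mice. With this concentration as a covariate the median log2 fold change of the members was -0.07 and 34 of 40 genes were lower. Shorter genes had lower fold changes, among the members (Spearman rho 0.51 between exon length and log2 fold change across 40 genes measured in the same 10 libraries) and among all genes with at least 1 RPKM (rho 0.30). After removal of this trend the median was -0.04 for the members and -0.005 for all genes. Lower were then 26 of 40 members, against 6118 of 11682 genes with at least 1 RPKM.

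All 8 MCM genes were lower in CM/miR-126Δ/Δ mice, with log2 fold changes from -0.11 to -0.003. Mcm6 (chromosome 1, 128331575 to 128359705, GRCm38), a subunit of the helicase ring, measured 606.0, 552.6, 511.3, 541.2 and 490.0 CPM in CM mice 1 to 5 and 521.4, 513.6, 555.4, 484.7 and 498.3 CPM in CM/miR-126Δ/Δ mice 1 to 5. The genotypes overlapped, and CM mouse 1 was the highest. The log2 fold change was -0.07 (SE 0.0755, 95% interval -0.23 to 0.09, edgeR adjusted p = 0.825). Mcm7 (chromosome 5, 138164583 to 138171883), another ring subunit, measured 205.0, 214.3, 164.7, 211.8 and 200.1 CPM in the 5 CM mice and 191.6, 173.6, 187.2, 193.9 and 176.8 CPM in CM/miR-126Δ/Δ mice. The CM mice other than mouse 3 lay above every CM/miR-126Δ/Δ mouse, and mouse 3 lay below all of them. The log2 fold change was -0.11 (SE 0.0727, 95% interval -0.27 to 0.05, edgeR adjusted p = 0.765). Mcm7 overlaps Mir106b, Mir25 and Mir93 on the same strand, and the part of this overlap in its counts was not tested. Mcm2, Mcm3, Mcm4 and Mcm5 had log2 fold changes of -0.10, -0.08, -0.08 and -0.08.

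The 5 licensing genes were also lower, with a median log2 fold change of -0.09. Orc6 (chromosome 8, 85299632 to 85308279), the smallest subunit of the origin recognition complex, measured 35.1, 37.8, 36.5, 33.0 and 31.2 CPM in the 5 CM mice and 31.7, 27.4, 26.4, 38.7 and 29.0 CPM in CM/miR-126Δ/Δ mice. CM/miR-126Δ/Δ mouse 4 was the highest of all 10 mice, while mice 2, 3 and 5 of that genotype were below every CM mouse. The log2 fold change was -0.18 (SE 0.101, 95% interval -0.40 to 0.04, edgeR adjusted p = 0.765). Cdt1 (chromosome 8, 122568015 to 122573130), which brings MCM to origins, measured 92.2, 94.4, 78.8, 91.5 and 81.3 CPM in the 5 CM mice and 86.1, 76.5, 85.6, 80.4 and 83.7 CPM in CM/miR-126Δ/Δ mice. Its CM mice split into 3 above and 2 within the range of the other genotype, and the log2 fold change was -0.09 (SE 0.0618, 95% interval -0.22 to 0.04, edgeR adjusted p = 0.765). Orc1, Orc2 and Cdc6 had log2 fold changes of -0.09, -0.10 and -0.04.

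Gins1 (chromosome 2, 150909594 to 150931280), a subunit of the GINS complex, showed the lowest log2 fold change of the 40 genes. It measured 21.5, 24.4, 22.4, 23.4 and 18.9 CPM in the 5 CM mice and 18.3, 19.0, 19.4, 21.3 and 18.1 CPM in CM/miR-126Δ/Δ mice. CM mice 1 to 4 were above all CM/miR-126Δ/Δ mice, and CM mouse 5 lay among them. The log2 fold change was -0.20 (SE 0.0891, 95% interval -0.39 to -0.01), a difference of -13.0%, with a two-sided exact permutation p of 0.0476 and an edgeR adjusted p of 0.748. At the other end of the group, Gins4 (chromosome 8, 23226610 to 23237668), the most abundant GINS subunit, measured 37.7, 36.3, 36.0, 36.7 and 35.7 CPM in the 5 CM mice and 36.6, 36.2, 36.3, 37.5 and 33.6 CPM in CM/miR-126Δ/Δ mice. The genotypes overlapped, with CM/miR-126Δ/Δ mouse 5 the lowest of all 10 mice and a log2 fold change of -0.02 (SE 0.0586, 95% interval -0.14 to 0.11, edgeR adjusted p = 0.963), whose sign turned positive under several settings. Gins2, Gins3 and Cdc45 had log2 fold changes of -0.14, -0.12 and -0.03, so the 4 subunits of the complex were all lower but by different amounts, and the differences between subunits were not tested.

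Of the 6 clamp and clamp loader genes, 5 were lower. Rfc2 (chromosome 5, 134582690 to 134598328), a small subunit of the loader, measured 139.6, 128.0, 127.0, 139.7 and 124.9 CPM in the 5 CM mice and 127.5, 114.6, 116.3, 129.0 and 118.6 CPM in CM/miR-126Δ/Δ mice. CM mice 1 and 4 were above all others and CM/miR-126Δ/Δ mice 2, 3 and 5 below all CM mice. The log2 fold change was -0.12 (SE 0.0569, edgeR adjusted p = 0.757). Pcna, the clamp itself (chromosome 2, 132249286 to 132253180), was singled out after its values were seen because it is the most widely used marker of replication. Its level was 114.1, 109.9, 94.3, 107.3 and 96.1 CPM in the 5 CM mice and 106.1, 90.5, 84.5, 106.6 and 81.1 CPM in CM/miR-126Δ/Δ mice. CM/miR-126Δ/Δ mice 2, 3 and 5 were below every CM mouse, whereas mice 1 and 4 were within the CM range. The log2 fold change was -0.15 (SE 0.0851, 95% interval -0.34 to 0.03, edgeR adjusted p = 0.765). Rfc1, the large subunit of the loader, was the exception of this group, with a log2 fold change of 0.02 (SE 0.0516, edgeR adjusted p = 0.932). Rfc3, Rfc4 and Rfc5 had values of -0.04, -0.11 and -0.10. After removal of the exon length trend Rfc1 was at 0.01 and Rfc3, at 0.03, was also above 0.

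The catalytic subunits of polymerases alpha and epsilon, Pola1 and Pole, were higher in CM/miR-126Δ/Δ mice while the other 6 polymerase and primase genes were lower. Pole (7129 bases of exon) and Pola1 (5347 bases) were also the longest genes of this group. After removal of the exon length trend Pola1 was at 0.07 and Pole at 0.008, and Prim2 and Pole2 were above 0 (0.03 each). Pola1 (chromosome X, 93304766 to 93632155) measured 214.7, 198.0, 204.0, 199.4 and 178.2 CPM in the 5 CM mice and 221.6, 234.1, 211.0, 198.1 and 192.5 CPM in CM/miR-126Δ/Δ mice. CM/miR-126Δ/Δ mice 1 and 2 were above every CM mouse, and the log2 fold change was 0.09 (SE 0.0690, 95% interval -0.06 to 0.24, edgeR adjusted p = 0.765). Pold2 (chromosome 11, 5872180 to 5878256), an accessory subunit of polymerase delta, measured 58.5, 51.6, 44.6, 59.4 and 47.3 CPM in the 5 CM mice and 48.4, 45.5, 50.1, 44.0 and 46.4 CPM in CM/miR-126Δ/Δ mice. CM mice 1, 2 and 4 were above all CM/miR-126Δ/Δ mice and the other two within their range, with a log2 fold change of -0.16 (SE 0.0803, 95% interval -0.33 to 0.01, edgeR adjusted p = 0.764). Pole had a log2 fold change of 0.06 (SE 0.0703, edgeR adjusted p = 0.841), with 4 CM/miR-126Δ/Δ mice at 219.8 to 221.8 CPM, above all CM mice, and mouse 4 at 173.9 CPM, below all of them. Its direction was opposite in male mice alone and with RNA concentration as a covariate. Pola2, Prim1, Prim2, Pold1 and Pole2 had log2 fold changes of -0.08, -0.09, -0.03, -0.05 and -0.03.

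The 4 genes of Okazaki fragment maturation and single-strand binding had the narrowest range of the 7 roles, with log2 fold changes from -0.06 to -0.04. Rpa1 (chromosome 11, 75300259 to 75348383), the large subunit of RPA, measured 186.3, 174.7, 164.5, 186.1 and 165.9 CPM in the 5 CM mice and 171.2, 167.5, 166.4, 171.3 and 167.6 CPM in CM/miR-126Δ/Δ mice. The 5 CM/miR-126Δ/Δ values lay inside the CM range, and the log2 fold change was -0.06 (SE 0.0541, 95% interval -0.17 to 0.06, edgeR adjusted p = 0.787). Lig1, the ligase that joins the fragments, Fen1, the nuclease that trims their flaps, and Rpa2 had values of -0.06, -0.04 and -0.05.

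In dNTP synthesis, Rrm1 (chromosome 7, 102441695 to 102469771) measured 414.0, 377.9, 357.2, 389.4 and 328.4 CPM in the 5 CM mice and 392.4, 372.7, 358.3, 350.5 and 336.9 CPM in CM/miR-126Δ/Δ mice. All CM/miR-126Δ/Δ mice were within the CM range, and the log2 fold change was -0.04 (SE 0.0737, 95% interval -0.20 to 0.11, edgeR adjusted p = 0.902). Tyms (chromosome 5, 30058200 to 30073625), thymidylate synthase, measured 50.8, 41.9, 50.5, 46.9 and 38.0 CPM in the 5 CM mice and 50.7, 52.0, 44.8, 49.7 and 44.9 CPM in CM/miR-126Δ/Δ mice. The genotypes overlapped, with a log2 fold change of 0.09 (SE 0.0838, 95% interval -0.09 to 0.27, edgeR adjusted p = 0.792). The pseudogene Tyms-ps is listed with 1705 counts over the 10 libraries, so reads may be split between the copies. Rrm2 and Tk1, thymidine kinase, had log2 fold changes of -0.04 and -0.06. Gins2, Rfc4, Pold2, Lig1, Fen1 and Tk1 each overlap a gene on the opposite strand. Their counts are uncertain to that extent because the strand setting of the counting is not stated. Pold1 overlaps a microRNA gene on its own strand.

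**Figure D4:**
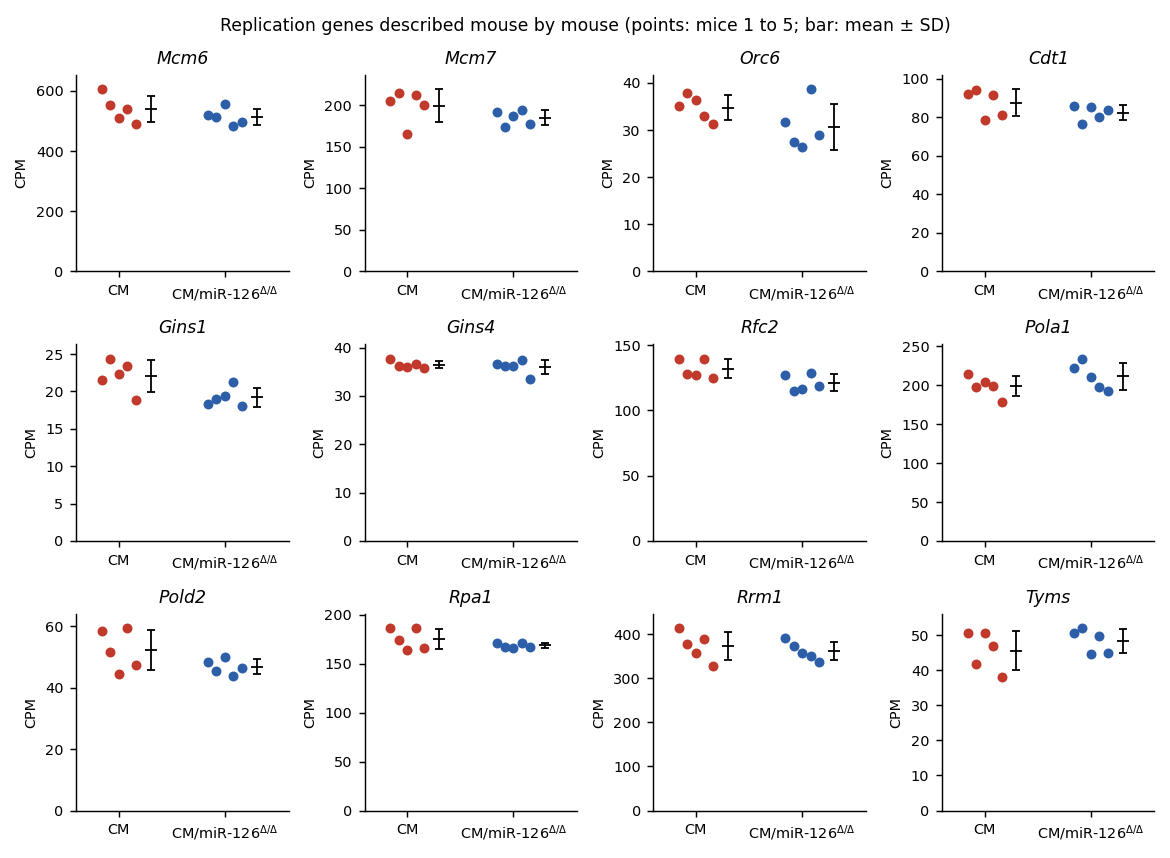
CPM of the 12 genes described mouse by mouse (Pcna is not plotted), with 1 point per mouse in order of mouse number and mean ± SD beside the points, on axes that start at 0. The genotypes overlap in each of the 12 panels, and the mean is lower in CM/miR-126Δ/Δ mice in all panels except Pola1 and Tyms.

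Genotype differences were also set side by side in the sexes, which were read from Xist and Y-linked counts (3 female and 2 male mice of each genotype). The median log2 fold change of the members was -0.09 in females and -0.03 in males, with 36 and 28 of the 40 genes lower. No member had a genotype by sex interaction at an adjusted p of 0.05 (edgeR quasi-likelihood test). At an unadjusted p under 0.05 the interaction was found for 3 of 40 members, beside 3.18% of genes with at least 1 RPKM. These 3 members, named after their values were seen, were the licensing genes Orc1, Orc6 and Cdc6. The licensing genes Orc2 and Cdt1 did not reach that p (0.456 and 0.873, same edgeR test). Outside the members, Recql4, Cdc7 and Dna2 of the wider list described below reached it. So did the mitotic genes Cenpf, Hmmr, Ect2 and Ttk. Orc1 had a log2 fold change of -0.29 in females and 0.26 in males, Orc6 of -0.35 and 0.08, and Cdc6 of -0.17 and 0.15 (adjusted p of the interaction 0.9999 for each). The male values rest on 2 mice per genotype.

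A wider list of 55 other replication and nucleotide genes was examined in the same way. Of these, 42 were lower and 13 higher in CM/miR-126Δ/Δ mice, with a median log2 fold change of -0.04, and 0 passed an adjusted p of 0.05. Of all genes with at least 1 RPKM, 57.5% were lower. After removal of the exon length trend 38 of the 55 genes were lower, with a median of -0.03. All 6 accessory polymerase and single-strand binding subunits were lower (-0.14 for Pold4 to -0.02 for Ssbp1). So were 10 of 11 genes of fork protection and clamp handling and 15 of 19 of dNTP supply and breakdown. After removal of the length trend Ssbp1 (0.02) and Pole4 (0.002) were above 0. The 14 further licensing and firing genes were divided, with 8 lower and 6 higher, from -0.14 for Recql4, a helicase needed for origin firing, to 0.13 for Orc4. At an unadjusted p under 0.05, 2 of the 55 were lower and 0 higher, where 4.46% and 3.46% of all genes with at least 1 RPKM were, so the count was no larger than in the background. Rnaseh2c, a subunit of the nuclease that removes ribonucleotides from DNA, measured 21.8 ± 2.20 CPM in the 5 CM mice and 18.8 ± 0.899 CPM in CM/miR-126Δ/Δ mice (SD, n = 5 each), with a log2 fold change of -0.22 (SE 0.0873, edgeR adjusted p = 0.746). Dctpp1, which breaks down dCTP, measured 44.2 ± 5.43 CPM and 37.6 ± 5.56 CPM (SD, n = 5 each), with a log2 fold change of -0.23 (SE 0.104, edgeR adjusted p = 0.748). Rnaseh2c and Dctpp1 are short (646 and 634 bases of exon). Their values after removal of the length trend were -0.16 and -0.18.

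Genes of mitosis, expressed later in the cell cycle, were mostly higher rather than lower. Of 30 mitotic genes, 23 were higher and 7 lower in CM/miR-126Δ/Δ mice, with a median log2 fold change of 0.02 and 0 genes at an adjusted p under 0.05. Ect2, which drives cytokinesis, measured 92.2 ± 2.90 CPM in the 5 CM mice and 106 ± 14.5 CPM in CM/miR-126Δ/Δ mice (SD, n = 5 each), with a log2 fold change of 0.20 (edgeR adjusted p = 0.746). The mitotic direction depended on 1 mouse and differed between the sexes. Without CM/miR-126Δ/Δ mouse 1, 14 of 30 genes were higher, with a median of -0.006. With any other mouse left out, 18 to 29 of 30 genes were higher. In females 28 of 30 genes were higher, and in males 4 of 30. In CM mouse 1, which had the highest mean of the 40 replication genes, the mean mitotic level was 92.4% of the CM mean, the lowest of all 10 mice, and in CM/miR-126Δ/Δ mouse 1 it was 115%, the highest. The difference between the lists was not tested.

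**Figure D5:**
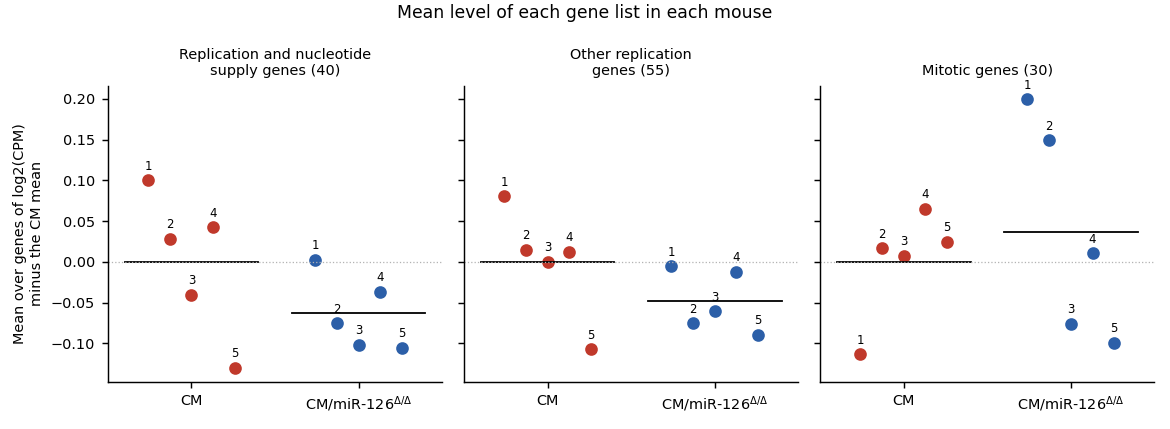
Mean over the genes of a list of log2(CPM) minus the CM mean, for the 40 replication and nucleotide supply genes, the 55 other replication genes and the 30 mitotic genes, with 1 numbered point per mouse and a line at the genotype mean. CM mouse 1 is the highest point for both replication lists and the lowest for the mitotic list.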

How the data were processed

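The deposited counts are whole reads per gene, without normalization, made by the authors from single-end 51-base reads of stranded, rRNA-depleted libraries (Trimmomatic 0.38, FASTP 0.19.4, Tophat 2.0.8, mm10/GRCm38, HTSeq 0.6.1 on RefSeq genes). The strand setting of the counting is not given in the sources used here. The second deposited table was not used because its values do not scale with exon length, and RPKM was computed from the counts, the exon lengths and TMM-scaled library sizes.

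From the 25078 genes, 18747 with at least 1 count were fitted in edgeR 4.0.16 (R 4.3.3) with TMM factors, the quasi-likelihood F-test in its edgeR 3 form, genotype as the only term and Benjamini-Hochberg adjustment over all genes. P-values are two-sided and set the tested difference against the spread between mice. Permutation tests ran over all splits of the 10 mice into 5 and 5. Log2 fold changes are CM/miR-126Δ/Δ against CM, SE was taken from the ratio of the log2 fold change to the root of its F value, and 3 counts correspond to 0.0904 to 0.127 CPM, a limit that covers counting error only. Alternatives were RLE, upper quartile and no factors, DESeq2 1.42.0, the quasi-likelihood of edgeR 4, filterByExpr, genes with at least 1 RPKM only, the replicate number as a block, sex or RNA concentration as a covariate, each sex alone, removal of the exon length trend, and each mouse left out. The count of members below 0 was added after seeing the data. Tests were checked on simulated data.

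The members and lists were chosen with earlier results of these data known. Mouse by mouse values were given for the member with the smallest p and the one with the highest RPKM in each role, and for members with an unadjusted p under 0.05. Promoter sequences are from RefSeq, 31 of the 33 with a start within 100 bases of that of the count table. The site sequence of 1 other gene is not reported here.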

Additional observations from a re-analysis of the deposited data

Results flagged for a closer look

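In each genotype, the 5 values of each gene were searched for 1 mouse set far apart from the other 4, at a level that chance passes in about 1 of 20 groups. Of 80 groups 6 were flagged, where chance gives 4. Mcm7 in CM mouse 3 was 164.7 CPM, below the other CM mice (200.1 to 214.3 CPM), and Pola2 in CM mouse 5 was 71.7 CPM, below the others (82.8 to 86.8 CPM). In CM/miR-126Δ/Δ mice, mouse 3 was high for Mcm5 (274.9 CPM, others 249.7 to 253.0) and for Orc2 (69.5 CPM, others 63.6 to 65.2). Pold1 was high in mouse 1 (137.7 CPM, others 117.8 to 121.8), and Pole was low in mouse 4 (173.9 CPM, others 219.8 to 221.8).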

How the results depend on the processing

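Under every setting run, 0 members passed an adjusted p of 0.05 or the cutoffs of the study, and the members' smallest adjusted p ran from 0.360 to 1. The median log2 fold change of the members stayed negative (-0.09 to -0.02), with 26 to 36 of 40 genes lower. Scaling moved the median of all genes between -0.04 and 0.009. The count of members lower at an unadjusted p under 0.05 (1, Gins1) was 0 with upper quartile factors, with genes of at least 1 RPKM only and in males, 2 with total counts and in females, 3 with the replicate block (7.5% of members, against 6.88% of genes with at least 1 RPKM), and 0 to 4 when each mouse was left out (4, or 10.0%, without CM/miR-126Δ/Δ mouse 4, against 5.50% of genes). The 2 members with total counts and in females are 5% of members, against 4.9% and 4.39% of genes. Members higher at that p numbered 0 to 1 with a mouse left out, where 2.29% to 6.65% of genes were higher. Members whose genotypes did not overlap (0) numbered 7 in each sex alone. There groups are of 3 and 2 mice, and 13.9% (females) and 32.3% (males) of genes did not overlap. With a mouse left out such members numbered 0 to 1, against 1.57% to 4.54% of genes.

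The labels do not say that the replicate numbers shared by the genotypes pair the mice. Deviations of same-numbered mice correlated at 0.176, 0.163, 0.430, 0.292 and -0.00359 over 13442 genes (mean 0.211, against -0.0535 for other numbers), same-numbered mice were of the same sex, and 5 of 10 mice correlated best with their own number. In a fit with this replicate block, the median of the members was -0.06, 36 were lower, the smallest adjusted p was 0.371, and 20 of all genes passed an adjusted p of 0.05 rather than 2.

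Among the values of 18 named genes under these settings, 418 kept their sign and 14 had the opposite one. In males these were Orc1 (0.26), Orc6 (0.0798), Cdc6 (0.15) and Pole (-0.00295), and with RNA concentration as a covariate Pole (-0.0438) and Gins4 (0.00257). Gins4 was 0.00979 with upper quartile factors, 0.00182 with genes of at least 1 RPKM only, and 0.0470 after removal of the length trend (0.0464 together with the replicate block). With each mouse left out Gins4 ran from -0.0207 to 0.00619, Cdc6 from -0.0750 to 0.0121 and Rrm1 from -0.0727 to 0.00797. The causes were not tested. DESeq2 called 47 of all genes, of which 0 were members.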
